A study of Mus musculus with 12 samples.

Results

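The mRNAs of 5 proteins that bind AU-rich elements, Zfp36, Zfp36l1, Zfp36l2, Elavl1 and Elavl2, were followed in mouse oocytes that lack normal MARF1 and in the same kind of oocyte supplied with MARF1 mRNA. They were taken by gene symbol from a table of 24254 genes, and all 5 passed the filter on low values. The oocytes were fully grown and at the germinal vesicle stage, before meiosis resumes, from C57BL/6 mice of 3 weeks. GTWT oocytes carried a gene trap in Marf1 and were injected with mRNA for wild type MARF1, a ribonuclease that oocytes need for meiosis. GTD272 oocytes carried the same trap and were injected with mRNA for MARF1 mutated at D272. GT oocytes carried the trap, and the labels name no injection for them. All 3 groups thus share the trap, and no group without it was analysed here. Mice had been primed with 5 IU of PMSG, a gonadotropin, for 46 h, and injected oocytes were kept for 48 h in medium with milrinone, which holds oocytes at this stage. The labels do not say whether GT oocytes were cultured, so the supplied protein, the injection and the culture cannot be told apart in comparisons with GT. Each group has 4 libraries of 80 pooled oocytes.

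Nothing in the labels says that libraries of a group came from separate mice, and the spread behind every p-value may therefore be technical. The labels also name lysed ovaries in one protocol and oocytes elsewhere. In the data all 10 oocyte markers reached 1 FPKM in every group and summed to 8208 to 8949 FPKM per library. FPKM is a fragment count scaled to transcript length and to the mapped fragments of the library. Of 7 blood markers, 6 were listed at 0 in every library. The granulosa markers Amh, Fshr and Foxl2 did not exceed 0.831 FPKM in any library. Kitl of the same list averaged 12.7 FPKM in GTWT, 12.9 in GTD272 and 14.4 in GT, and Cyp19a1 6.67, 5.04 and 4.87. Of the 12 on that list, 4 reached 1 FPKM in at least 1 library of GTWT, 5 in GTD272 and 4 in GT. All 12 granulosa and cumulus markers summed to 120 to 129 FPKM in GTWT, 127 to 137 in GTD272 and 142 to 150 in GT, most of it from Nr5a2. Without Nr5a2 the sums were 18.6 to 25.6 FPKM in GTWT, 18.04 to 23.6 in GTD272 and 20.4 to 24.997 in GT, so their ranges overlapped. Relative depth ranged from 55.4% to 100% of the deepest library, and between 11167 and 11364 genes reached 1 FPKM per library. Marf1 itself averaged 17.5 FPKM in GTWT and 9.12 in GTD272, against 1.60 in GT, so the injected groups also differed in Marf1 mRNA (log2 difference 0.84, limma adjusted p = 0.0188), and the part of this in any difference between them was not tested. The Marf1 difference between GTWT and GTD272 did not pass without GTWT replicate 4 or GTD272 replicate 2 or 4 (adjusted p = 0.0505 to 0.0549).

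AU-rich elements are sequences in the 3′ UTR of many short-lived mRNAs. ZFP36 proteins, of which ZFP36 is also called tristetraprolin, bind them through CCCH zinc fingers and bring the CCR4-NOT deadenylase, which shortens the poly(A) tail and starts decay. ELAVL proteins, also called Hu proteins, bind AU-rich and U-rich stretches through RNA recognition motifs and mostly stabilise the mRNA or change its translation. In mouse oocytes ZFP36L2 is needed for the turnover of maternal mRNA and for female fertility, and ELAVL2 is the ELAVL protein best known from this cell type.

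The mRNAs of the 5 proteins carry such elements themselves. The 3′ UTR of each held at least 3 matches to TATTTAT, a core of AU-rich elements searched on the sense strand with overlapping matches counted. Zfp36, Zfp36l1, Zfp36l2 and Elavl2 held 3 matches and Elavl1 held 8. Of 20734 mouse genes with a 3′ UTR in GENCODE vM21, 26.1% held at least 1 match, 3.74% at least 3 and 0.145% at least 8. Longer 3′ UTRs hold more matches, so each was also set beside genes whose 3′ UTR was within 20% of its length. Among these, 1.23% held at least as many matches as Zfp36 (774 bases), 4.13% at least as many as Zfp36l1 (1835 bases) and 4.12% at least as many as Zfp36l2 (1822 bases). The shares were 0.161% for Elavl1 (4218 bases) and 6.16% for Elavl2 (2477 bases). A match describes these letters and is not a site shown to be bound.

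For each mRNA the 24 bases with the most matches are shown 5′ to 3′ on the transcript strand, with matches in capitals. Of equal stretches, the one with more matches that have T on both sides was taken, then the first. They are shown because these are letters that ZFP36 proteins are known to read.
Zfp36: TATTTATgacgacttTATTTATtg
Zfp36l1: tgttggatTATTTATtttagaaat
Zfp36l2: atttaactTATTTATtatcttgtg
Elavl1: atTATTTATTTATTTATTTATttt
Elavl2: tacattttTATTTATgaagttaca
All lie on the minus strand of GRCm38, the assembly of mm10, in the 3′ UTR and in the last exon of the transcript used. Their positions are chr7:28376960-28376983 for Zfp36, chr12:80108169-80108192 for Zfp36l1, chr17:84184916-84184939 for Zfp36l2, chr8:4285784-4285807 for Elavl1 and chr4:91252701-91252724 for Elavl2. The Elavl1 stretch is a run of 4 overlapping matches, whereas the 2 matches of Zfp36 stand apart. The stretches of Zfp36l1, Zfp36l2 and Elavl2 show 1 of 3 matches each. Over the whole 3′ UTR, 1 match had T on both sides in each of Zfp36, Zfp36l1 and Zfp36l2, 8 had it in Elavl1 and 0 in Elavl2. Of the 20734 genes with a 3′ UTR, 7.13% held at least 1 such match.

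Zfp36l2 was the most abundant of the 5 mRNAs in every library, followed in order by Elavl2, Zfp36, Elavl1 and Zfp36l1. In every group the lowest library of each gene lay above the highest library of the next, although in GT the gap between Elavl1 (lowest 4.19 FPKM) and Zfp36l1 (highest 4.09 FPKM) was small. By mean FPKM, Zfp36l2 ranked 438th of 11687 genes in GTWT, 267th in GTD272 and 196th in GT. Elavl2 ranked 1168th, 1412th and 1445th in the same groups. Zfp36l2 made up 89.2 ± 2.44% of the summed FPKM of Zfp36, Zfp36l1 and Zfp36l2 in GTWT, 92.3 ± 0.760% in GTD272 and 90.0 ± 1.04% in GT (SD, n = 4 each). Elavl2 made up 94.0 ± 1.02% of the sum of Elavl1 and Elavl2 in GTWT, 92.1 ± 1.72% in GTD272 and 93.2 ± 0.132% in GT.

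**Figure D1:**
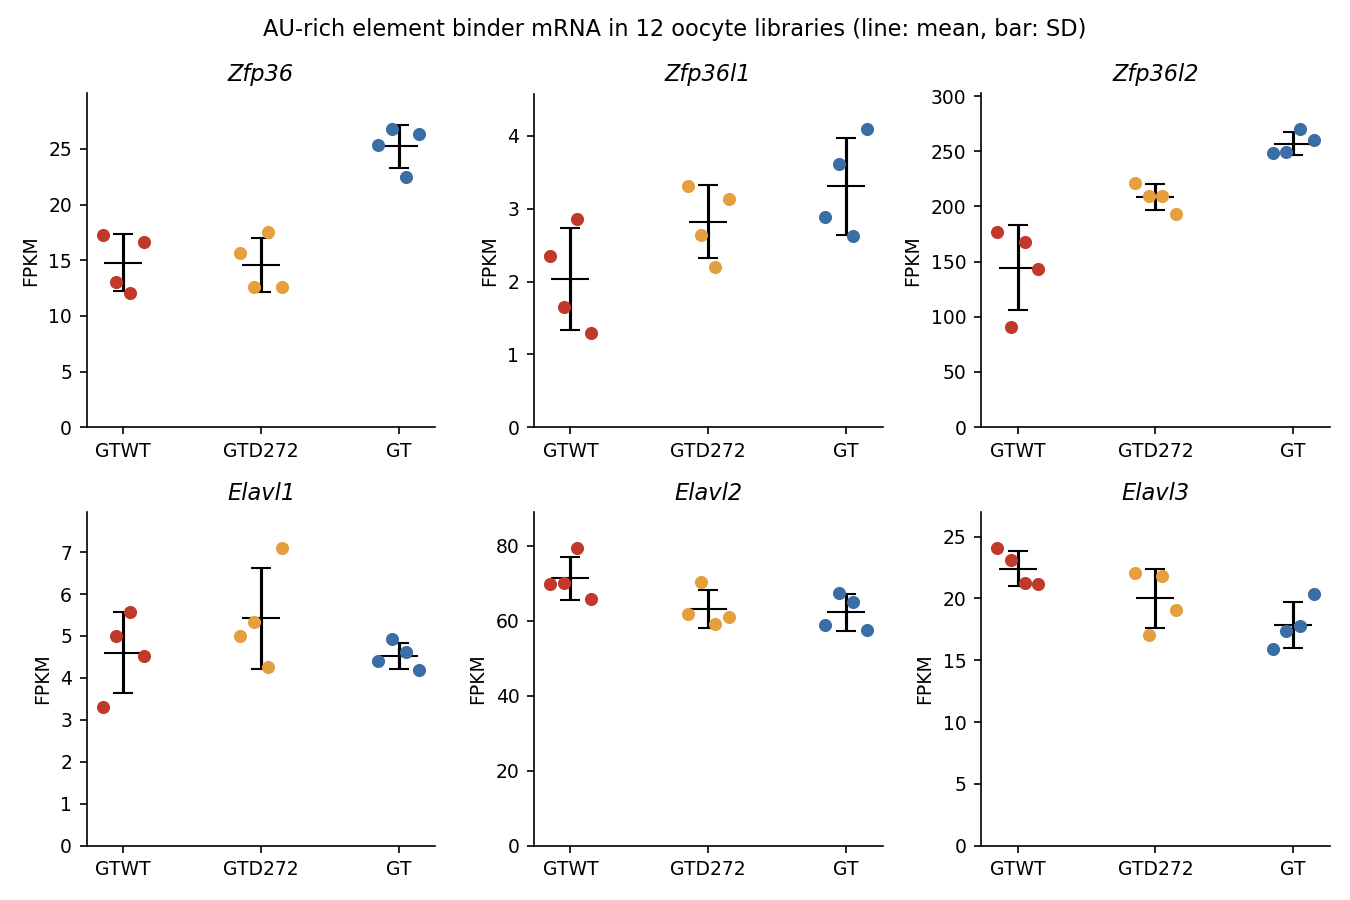
FPKM (linear axis from 0) of the 5 mRNAs and of the paralogue Elavl3 in the GTWT, GTD272 and GT libraries. Points are libraries, the wide line is the mean and the bar is the SD (n = 4 per group). The GTWT libraries of Zfp36l2 lie between 90.4 and 177 FPKM, below all GTD272 and GT libraries, while the Zfp36 libraries of GTWT (12.1 to 17.3 FPKM) and GTD272 (12.6 to 17.5 FPKM) overlap.

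GTWT was set beside GT to compare oocytes injected with wild type MARF1 mRNA and cultured with oocytes that carry the trap alone. Zfp36l2 and Zfp36 fell, by 0.87 and 0.75 on the scale of log2(FPKM + 1), and the other 3 did not pass the test. These 2 calls of 5 stand beside 10.5% of the 11687 tested genes called lower and 6.14% called higher in this comparison, 16.6% in either direction. Libraries did not overlap for these 2, beside 12.6% of genes with every GTWT library lower, 9.32% with every one higher and 21.9% in either direction. The median difference of the 5 genes was -0.52, beside -0.01 over all genes tested. Of all calls 63.0% were lower, and after quantile normalization 49.8% were. Both mRNAs also fell after quantile normalization and after median-of-ratios scaling.

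Zfp36l2 is the decay factor known to act on maternal mRNA. Its FPKM was 177, 90.4, 167 and 143 in GTWT replicates 1 to 4, against 248, 249, 270 and 260 in GT replicates 1 to 4. The groups did not overlap, and GTWT replicate 2 was the lowest of all 12 libraries. The means were 144 ± 38.7 FPKM in GTWT and 257 ± 10.2 in GT (SD, n = 4 each), a ratio of 0.562. The log2 difference was -0.87 (SE 0.15, limma adjusted p = 0.00212). Without GTWT replicate 2 it was -0.66. The authors' deposited table lists a log2 ratio of -0.82 with a q-value of 0.000573, and in it 10.5% of the tested genes had a q-value under 0.05 and were lower. Because RNA of pooled oocytes was measured, less mRNA in each oocyte and an effect in some of the oocytes cannot be told apart.

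Zfp36 is both a decay factor and an immediate early gene, induced quickly by growth factors and stress in many cells. It was at 17.3, 13.1, 12.1 and 16.7 FPKM in GTWT, against 25.4, 26.8, 22.5 and 26.3 in GT. Every GTWT library lay below every GT library, with the lowest GT library at 22.5 FPKM and the highest GTWT library at 17.3. The means were 14.8 ± 2.58 FPKM in GTWT and 25.2 ± 1.93 in GT (SD, n = 4 each), a log2 difference of -0.75 (SE 0.13, limma adjusted p = 0.00195). The authors' deposited table lists -0.76 with a q-value of 0.000573.

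Zfp36l1, the third ZFP36 family mRNA to pass the filter, was near it. It had 2.36, 1.64, 2.85 and 1.29 FPKM in GTWT, against 2.88, 3.62, 2.63 and 4.09 in GT, and the groups overlapped. The log2 difference was -0.52 (95% interval -0.92 to -0.12, limma adjusted p = 0.0697). Without GTWT replicate 3 it passed (-0.65, adjusted p = 0.0318). The authors' deposited table lists log2 ratios of -0.68 for GTWT against GT and -0.22 for GTD272 against GT. For GTWT against GTD272 it lists -0.46. The p-values beside these ratios are the highest possible, as they are for Elavl4, which was listed at 0 in every library. They can therefore stand for a gene that was not tested, and no conclusion was drawn from them.

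Elavl1, which encodes HuR and is expressed in most tissues, was at 3.31, 5.00, 5.57 and 4.52 FPKM in GTWT, against 4.39, 4.92, 4.62 and 4.19 in GT. The log2 difference was 0.00, with a 95% interval of -0.33 to 0.34 (limma adjusted p = 0.993). GT libraries lay within the range of the GTWT libraries.

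Elavl2, the main ELAVL mRNA of these oocytes, was at 69.7, 70.0, 79.4 and 65.9 FPKM in GTWT, against 58.8, 67.5, 65.0 and 57.4 in GT. The difference was 0.19 (95% interval 0.03 to 0.36, limma adjusted p = 0.0971), and GTWT replicate 4 lay below GT replicate 2. After quantile normalization it was 0.24 and passed (adjusted p = 0.0379). The authors' deposited table lists 0.21 with a q-value of 0.0447, as one of 8.03% of tested genes higher at a q-value under 0.05. The FPKM of Zfp36l2 was 2.03 ± 0.525 times that of Elavl2 in GTWT, 3.32 ± 0.292 times in GTD272 and 4.15 ± 0.343 times in GT (SD, n = 4 each). GTWT libraries ranged from 1.29 to 2.53 in this ratio, GTD272 libraries from 2.98 to 3.58 and GT libraries from 3.70 to 4.53, so no groups overlapped. Zfp36l2 alone did not overlap in any of the 3 comparisons either, so this is not a separate result. The ratio itself was not tested.

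**Figure D2:**
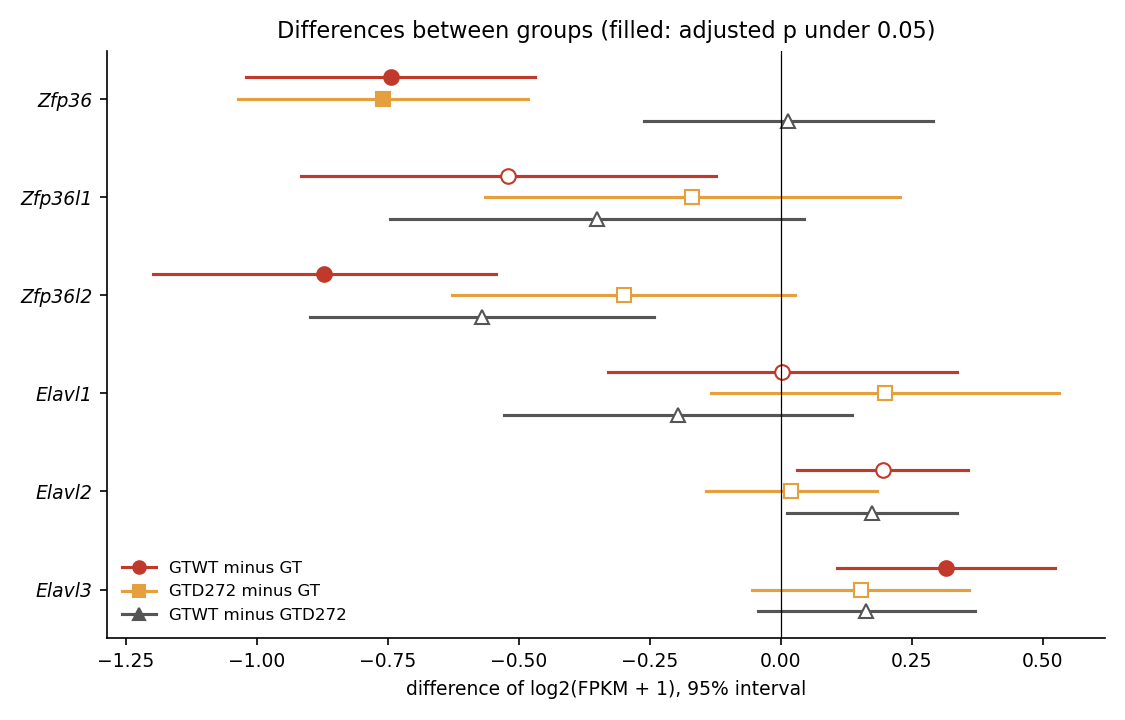
Differences of log2(FPKM + 1) with 95% intervals for the 5 mRNAs and Elavl3 in the 3 comparisons, from limma over all 12 libraries. Filled symbols passed at an adjusted p under 0.05. Zfp36 is filled in both comparisons with GT (-0.75 and -0.76), Zfp36l2 in GTWT minus GT (-0.87), and the paralogue Elavl3 in GTWT minus GT (0.31).

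GTD272 was likewise set beside GT, which differs from it by the mutated mRNA, the injection and any difference in culture. Zfp36 fell and the other 4 did not pass, beside 1.54% of tested genes called lower, 1.41% called higher and 2.95% in either direction. The median of the 5 genes was -0.17, beside -0.01 over all genes. Both comparisons with GT use the same GT libraries, so they are not independent. Zfp36 was at 15.7, 12.6, 17.5 and 12.6 FPKM in GTD272 (mean 14.6 ± 2.42, SD, n = 4), against 22.5 to 26.8 in GT. The groups did not overlap, and the log2 difference was -0.76 (SE 0.13, limma adjusted p = 0.00869). The authors' deposited table lists -0.78 with a q-value of 0.00223.

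Zfp36l2 was at 222, 210, 209 and 193 FPKM in GTD272 (mean 209 ± 11.6, SD, n = 4), against 248 to 270 in GT. All GTD272 libraries lay below all GT libraries, beside 7.59% of genes with such a separation in the lower direction, 5.37% in the higher and 13% in either. The log2 difference of -0.30 (95% interval -0.63 to 0.03) did not pass with limma (adjusted p = 0.304). It used a spread shared with the GTWT libraries, whose SD was 38.7 FPKM. With the GTD272 and GT libraries alone the difference of -0.30 had an SE of 0.05 and passed (adjusted p = 0.0157), as it did without GTWT replicate 2 (0.0279). The authors' deposited table lists -0.29 with a q-value of 0.00518, in which a q-value under 0.05 was reached by 3.59% of tested genes as lower and 2.73% as higher.

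The remaining mRNAs overlapped between GTD272 and GT. Zfp36l1 was at 3.31, 2.63, 2.199 and 3.14 FPKM in GTD272, a difference of -0.17 (95% interval -0.57 to 0.23). Elavl1 was at 5.00, 5.33, 4.25 and 7.10 FPKM, with replicate 4 the highest of the 12 libraries, a difference of 0.20 (-0.13 to 0.53). Elavl2 was at 61.9, 70.4, 59.03 and 60.9 FPKM, a difference of 0.02 (-0.14 to 0.18), the narrowest interval of the 5.

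GTWT and GTD272, both injected and cultured, were then compared directly, which addresses the difference between the wild type and the mutated protein. None of the 5 mRNAs passed with limma, beside 1.84% of tested genes called lower, 0.625% called higher and 2.46% in either direction. At an unadjusted p under 0.05 there were 2, Zfp36l2 and Elavl2. In the authors' deposited table Zfp36l2 had a q-value under 0.05 and the other 4 did not, where 3.71% of tested genes were lower and 1.51% higher at that threshold. The calls over all genes were 74.7% lower, and 56.0% after quantile normalization.

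Zfp36l2 was lower in every GTWT library (90.4 to 177 FPKM) than in every GTD272 library (193 to 222 FPKM), a ratio of means of 0.692. Such separation was seen for 5.93% of genes in the lower direction, 4.26% in the higher and 10.2% in either. The log2 difference was -0.57 (95% interval -0.90 to -0.24) and missed the threshold (limma adjusted p = 0.0667). The adjusted p ranged from 0.0236 to 0.139 when single libraries were left out. It passed without GTWT replicate 1 (-0.68, adjusted p = 0.0378), replicate 2 (-0.36, 0.0236) or replicate 3 (-0.66, 0.0493). The authors' deposited table lists -0.52 with a q-value of 0.00189.

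Zfp36 did not follow Zfp36l2 here. Its means were 14.8 ± 2.58 FPKM in GTWT and 14.6 ± 2.42 in GTD272 (SD, n = 4 each), a difference of 0.01 with a 95% interval of -0.26 to 0.29. For Zfp36l1 the difference was -0.35 (-0.75 to 0.04), for Elavl1 -0.20 (-0.53 to 0.14) and for Elavl2 0.17 (0.01 to 0.34), and libraries overlapped for all 3. For comparison, Ppp2cb, a PP2A subunit mRNA known to be high in Marf1 mutant oocytes, was at 69.4 ± 11.2 FPKM in GTWT, 100 ± 5.33 in GTD272 and 105 ± 5.57 in GT. Its GTD272 range overlapped that of GT, and its GTWT libraries lay below both (GTWT against GTD272 -0.54, limma adjusted p = 0.0122). In GTWT replicate 2, the library lowest for Zfp36l2, Ppp2cb was also lowest at 53.3 FPKM. The same library had the most Marf1 mRNA, at 13.5, 24.1, 13.6 and 19.02 FPKM in GTWT replicates 1 to 4. Zfp36l2 stood in the reverse order in these libraries. The order was not reversed in GTD272, where replicate 4 was lowest of its group for both Marf1 (7.99 FPKM) and Zfp36l2 (193 FPKM). A relation of Zfp36l2 to the amount of Marf1 mRNA within groups was not tested.

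Across the 12 libraries Zfp36l2 and Zfp36l1 had a Pearson correlation of 0.74 on the log2(FPKM + 1) scale, and Zfp36l2 and Zfp36 one of 0.64. The 2 Elavl mRNAs correlated with each other at 0.13. Elavl2 correlated negatively with Zfp36 (-0.53) and with Zfp36l2 (-0.48). These values describe 3 groups of libraries that share depth and treatment.

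The 3 genes whose pattern over the 12 libraries was most like that of Zfp36l2 were Cyth3 (r = 0.985), Mcl1 (0.984) and Crebl2 (0.981). Cyth3, an exchange factor for ARF GTPases, was at 73.1 ± 13.1 FPKM in GTWT, 93.2 ± 3.92 in GTD272 and 104 ± 3.95 in GT. Mcl1, an anti-apoptotic BCL2 family gene with a known AU-rich mRNA, was at 312 ± 31.0, 357 ± 15.5 and 383 ± 11.03 FPKM in these groups. Crebl2, a small bZIP protein gene, was at 28.3 ± 8.84, 45.6 ± 0.734 and 57.3 ± 0.921 FPKM. All 3 had their lowest value in GTWT replicate 2, as Zfp36l2 did.

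For Zfp36 the nearest genes were Rhof (0.929), Gm20939 (0.915) and Cnppd1 (0.914). Rhof was at 32.7 ± 3.65 FPKM in GTWT and 34.6 ± 1.22 in GTD272, against 42.2 ± 2.50 in GT, like Zfp36 lower in both injected groups than in GT by mean. Zfp36l1 was most like Gm10466 (0.907), Nipsnap3b (0.897) and Wdr44 (0.895). Nipsnap3b was at 10.4 ± 2.002 FPKM in GTWT, 17.1 ± 2.11 in GTD272 and 22.7 ± 3.19 in GT, and its GTD272 and GT libraries overlapped. Elavl1 was most like Snapc4 (0.910), Tk1 (0.898) and Ube2e1 (0.895), and Elavl2 most like Dcbld2 (0.895), Pdpk1 (0.869) and Pls1 (0.855).

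**Figure D3:**
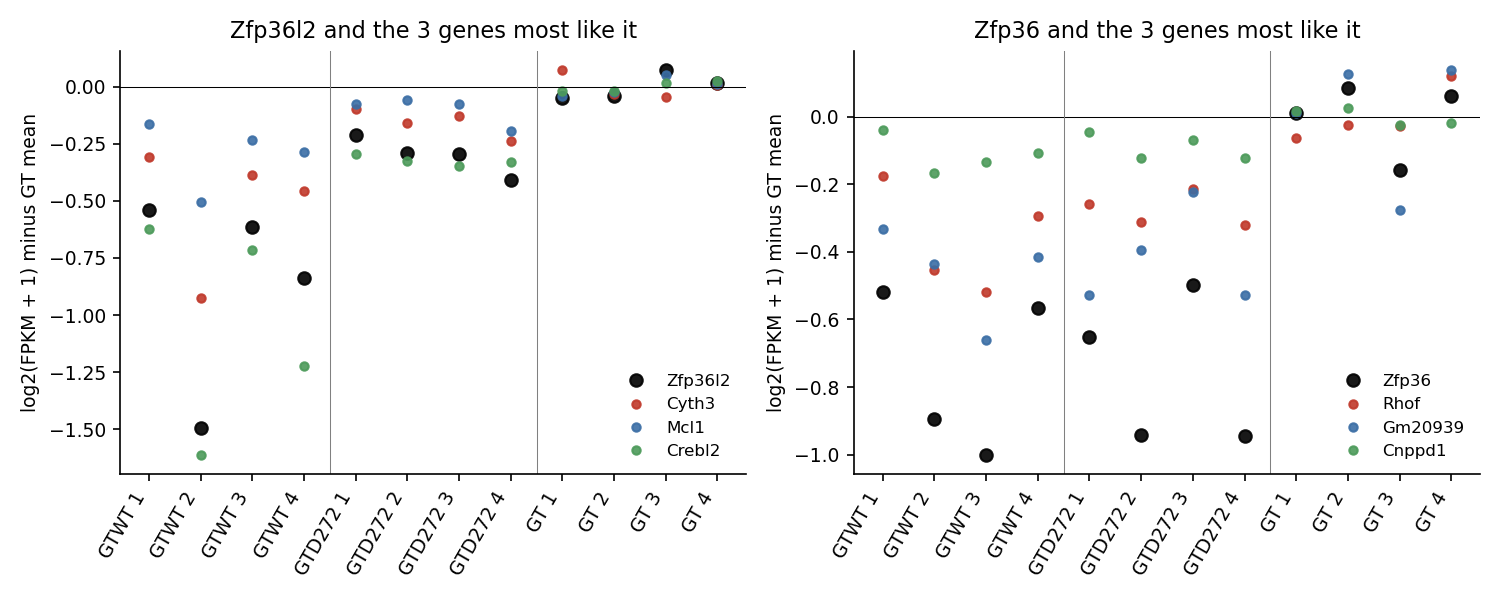
Differences from the GT mean in log2(FPKM + 1) for Zfp36l2 (left) and Zfp36 (right), each with the 3 genes most like it by Pearson correlation over 12 libraries. Each point is 1 library, ordered GTWT, GTD272, GT. GTWT replicate 2 is the lowest library for Zfp36l2, Cyth3, Mcl1 and Crebl2, and all GTWT and GTD272 points of Zfp36 lie below its GT points.

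Paralogues outside the 5 were also measured. Elavl3, best known from neurons, was at 24.1, 23.1, 21.2 and 21.2 FPKM in GTWT, 22.1, 17.05, 21.8 and 19.1 in GTD272, and 15.9, 17.4, 17.8 and 20.4 in GT. It thus stood between Elavl2 and Elavl1 and was the second ELAVL mRNA of these oocytes, at 22.9 ± 2.05% of the Elavl1, Elavl2 and Elavl3 sum in GTWT, 22.7 ± 3.29% in GTD272 and 21.2 ± 2.50% in GT. Elavl3 rose in GTWT against GT by 0.31 (SE 0.10, limma adjusted p = 0.0400), with no overlap, the lowest GTWT library standing at 21.2 FPKM and the highest GT library at 20.4. That call was lost without GTWT replicate 1, 2 or 4 or GT replicate 1, 2 or 3 (adjusted p = 0.0559 to 0.113), without a filter (0.0592) or a variance trend (0.0524), and with a replicate block (0.0715). Elavl4 was listed at 0 in every library, and Zfp36l3, a rodent ZFP36 gene known from placenta, did not exceed 0.332 FPKM.

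Of 13 other AU-rich binders 11 were tested, Elavl3 among them. Elavl3 rose in GTWT against GT and 0 fell, so 9.09% were called, beside 16.6% of all genes. Limma called 0 in GTD272 against GT (4 at an unadjusted p under 0.05), beside 2.95% of all genes. Their median difference in GTWT against GT was -0.16, beside -0.01 over all genes. Khsrp, which encodes the decay factor KSRP, was at 8.42 ± 1.996 FPKM in GTWT and 16.8 ± 2.88 in GTD272 (SD, n = 4 each), a difference of -0.93 (SE 0.16, limma adjusted p = 0.00796). Khsrp was at 12.03 ± 1.66 FPKM in GT, between the injected groups, and neither comparison with GT passed (adjusted p = 0.0521 for GTWT and 0.146 for GTD272). The difference of -0.48 from GT in GTWT passed under 5 alternatives (0.0194 to 0.0474), among them without GTWT replicate 3, GTD272 replicate 1 or GT replicate 1. In GTWT against GTD272 the other 10 binders of the list, like the 5, did not pass. The share called there was 9.09% of the 11, beside 2.46% of all genes.

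ZFP36 proteins act through CCR4-NOT. Of 20 CCR4-NOT and poly(A) genes 4 fell and 1 rose in GTWT against GT, with a median difference of -0.05, beside -0.01 over all genes. The share called was 25%, beside 16.6% of all genes (10.5% lower and 6.14% higher). The catalytic subunit genes Cnot8 and Cnot7 were at 52.5 ± 4.15 and 173 ± 5.70 FPKM in GTWT, against 70.7 ± 6.57 and 222 ± 14.9 in GT (differences -0.42 and -0.36, limma adjusted p = 0.00387 and 0.00427). Tob1, which links poly(A)-binding protein to the deadenylase, fell by 0.52 (adjusted p = 0.00700), and Pabpc1l, the oocyte poly(A)-binding protein gene, rose by 0.36 (0.00130). In GTD272 against GT, Cnot7 fell (-0.42, adjusted p = 0.00801) and the other 19 did not pass, a share of 5%, beside 2.95% of all genes. In GTWT against GTD272 limma called 0 of the 20, beside 2.46% of all genes. At an unadjusted p under 0.05 there were 4, in a comparison where a limma p of 0.0491 ranked 2131st of 11687 genes. The fifth call in GTWT, Btg4 (-0.16), was named after its values were seen, and was lost under several alternatives, among them quantile normalization (adjusted p = 0.606).

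ZFP36 proteins are inactivated by MAPK14 and MAPKAPK2 signalling, held by 14-3-3 proteins and dephosphorylated by PP2A. Of 20 tested genes of this signalling and of HuR export, 4 fell and 2 rose in GTWT against GT, with a median difference of 0.01, beside -0.01 over all genes. The share called was 30%, beside 16.6% of all genes. Besides Ppp2cb (-0.60, limma adjusted p = 0.00142), the 14-3-3 gene Ywhae fell by 0.27 (0.00170) and Ywhab rose by 0.19 (0.0115). Ppp2ca fell by 0.16 (0.0131), a call lost after quantile normalization (0.0932) and without a variance trend (0.0717). Ywhag fell by 0.19 (0.0153) and Mapk14 rose by 0.27 (0.0327), both named after their values were seen. The Mapk14 call was lost without GTWT replicate 1, 2 or 4 or GT replicate 1 or 4 (adjusted p up to 0.0907). Ywhae fell in GTD272 against GT too (-0.20, adjusted p = 0.0378), the single call of the 20 there, a share of 5%, beside 2.95% of all genes. The Ywhae call in GTD272 was lost on leaving out any one GT library or GTD272 replicate 1 or 2 (0.0567 to 0.105), and under 5 other alternatives (0.0510 to 0.118). Of the 20, Ppp2cb was the single call in GTWT against GTD272, a share of 5%, beside 2.46% of all genes.

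Of 31 classic AU-rich mRNAs 15 were tested, since the others, among them Tnf, Myc and Ptgs2, stayed below the filter. In GTWT against GT 3 fell and 2 rose, a share of 33.3%, beside 16.6% of all genes. Their median difference was -0.04, beside -0.01 over all genes. Ier2, an immediate early gene, was at 62.1 ± 6.85 FPKM in GTWT, against 97.6 ± 9.56 in GT (-0.64, limma adjusted p = 0.000915). Fos, Junb and Egr1, also immediate early genes, did not pass (0.17, 0.42 and -0.21, limma adjusted p = 0.645, 0.139 and 0.128). Atf3, a stress-induced transcription factor gene, was at 31.7 ± 5.20 FPKM in GTWT, against 18.02 ± 3.33 in GT (0.78, adjusted p = 0.00160). Mcl1 and Dusp1 fell by 0.30 and 0.32 (adjusted p = 0.00616 and 0.0291), but neither passed after quantile normalization (0.0598 and 0.0523). Leaving out any library of GTWT or GT other than GTWT replicate 3 also ended the call of Dusp1 (0.0502 to 0.0843). Cdkn1a, named after its values were seen, rose by 0.88 (adjusted p = 0.0303), a call lost without GTWT replicate 1 or 4 or GT replicate 1, 2 or 3 (0.0652 to 0.0821) and without a filter (0.0549). Limma called 0 of the 15 in GTD272 against GT (2 at an unadjusted p under 0.05), beside 2.95% of all genes. It called 0 in GTWT against GTD272 (5 at that p), beside 2.46% of all genes. Among 11687 genes, a limma p of 0.0532 ranked 2302nd in the first of these comparisons and 0.0491 ranked 2131st in the second.

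**Figure D4:**
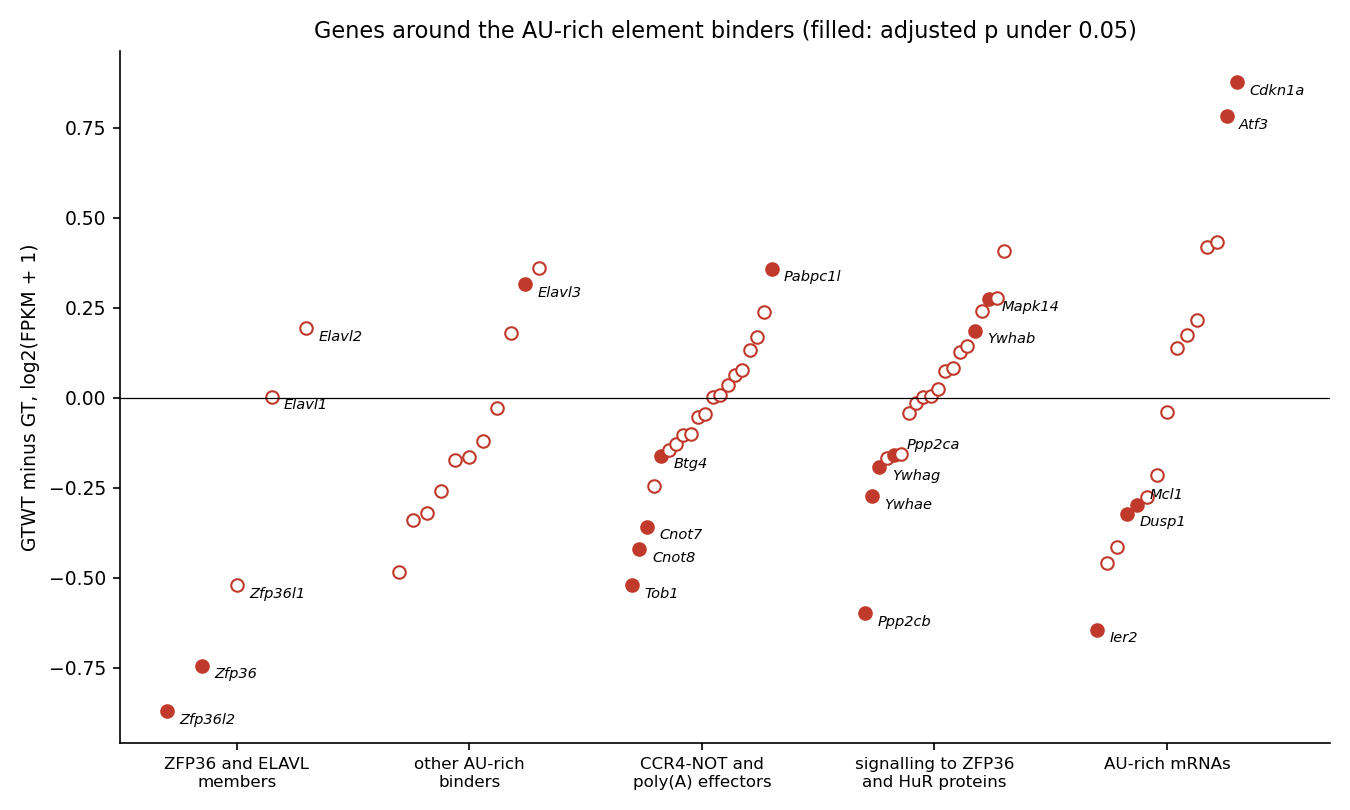
Differences of log2(FPKM + 1) in GTWT minus GT for the 5 AU-rich binder mRNAs and for the 4 lists of related genes, sorted within each list. Filled points passed at a limma adjusted p under 0.05, and these and the 5 binder mRNAs carry names. Zfp36l2 (-0.87) and Zfp36 (-0.75) lie below every gene of the 4 lists shown.

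The mRNAs that ZFP36 and ELAVL proteins could read were described by the same motif. A 3′ UTR was found for 10647 of the 11687 tested genes. In GTWT against GT, 18.2% of the 369 genes with 3 or more matches were called lower, beside 14.3% of 659 with 2 matches, 13.9% of 2016 with 1 and 9.05% of 7603 with none. Higher calls ran the other way, at 2.71%, 5.46%, 6.35% and 6.62% in the same classes. Median differences were -0.09, -0.06, -0.04 and 0.01. After quantile normalization 13.8% of genes with 3 or more matches were called lower and 4.88% higher, beside 7.14% and 9.13% of genes with none. Among 3′ UTRs of 2000 bases or more, 16.8% of 279 genes with 3 or more matches were called lower and 11.2% of 393 with 2. The share was 15.1% of 887 with 1 and 11.5% of 1210 with none, so it did not step up with each match there. It did step up in shorter 3′ UTRs. From 500 to under 2000 bases it was 22.1% of 86 genes, 18.4% of 245, 14% of 924 and 10.6% of 3509 in the same order. Under 500 bases it was 25% of 4 genes, 23.8% of 21, 8.78% of 205 and 6.1% of 2884. In GTD272 against GT, over all lengths, 2.44% of genes with 3 or more matches were lower and 0.271% higher, beside 1.38% and 1.63% of genes with none. The medians were -0.06, -0.04 and -0.04 with 3 or more, 2 and 1 matches, and 0.01 with none. In GTWT against GTD272, 2.44% of genes with 3 or more matches (9 of 369) were lower and 0% higher, beside 1.64% and 0.631% of genes with none. The medians there were -0.03, -0.01, -0.01 and -0.01 in the same order. After quantile normalization, 2.71% of genes with 3 or more matches were lower and 1.63% higher in this comparison. Beside them stood 1.33% and 1.21% of genes with none, so the lack of higher calls did not hold. No test was made between these classes, whose genes also differ in 3′ UTR length (median 3243 bases with 3 or more matches, 729 with none).

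**Figure D5:**
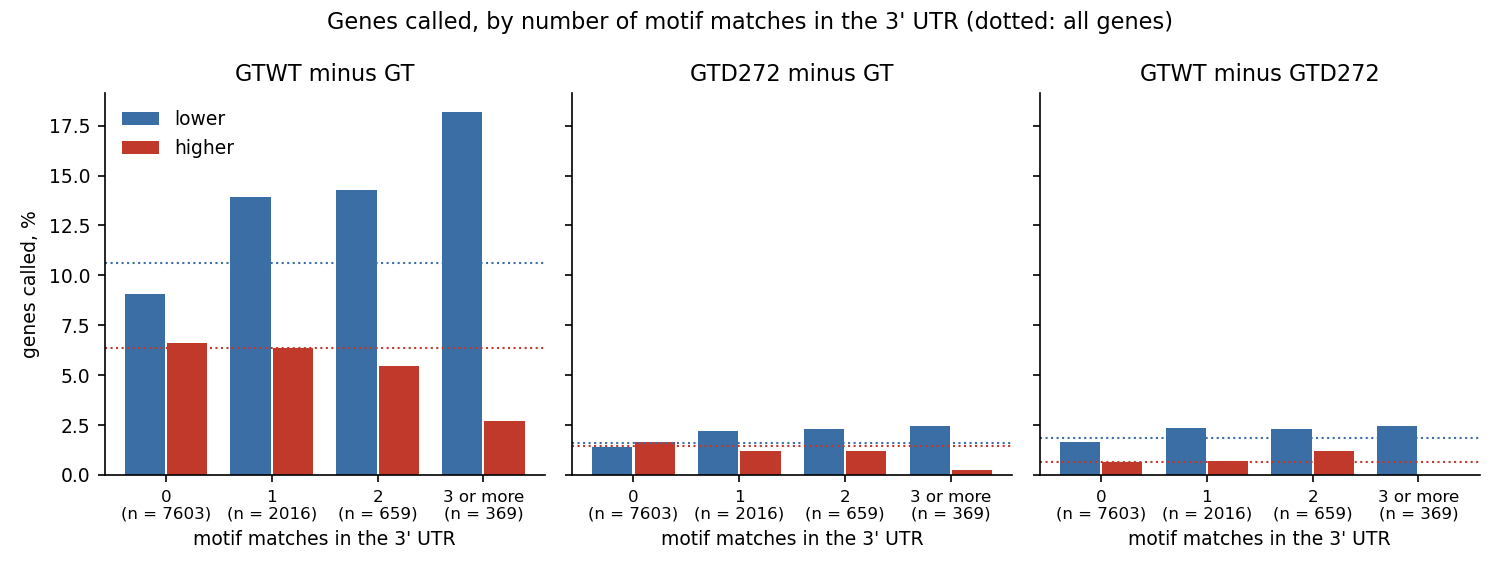
Share of genes called lower or higher (percent, limma adjusted p under 0.05) by the number of TATTTAT matches in the 3′ UTR, for the 3 comparisons. Dotted lines give the share over all genes with a 3′ UTR. In GTWT minus GT the lower share is 18.2% with 3 or more matches and 9.05% with none.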

How the data were processed

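Per the labels and the submitters' processing notes, the authors used TopHat2 2.0.13 with the mm10 genome and then computed FPKM with Cufflinks 2.2.1. The deposited p-values, q-values and log2 ratios are from the authors' Cuffdiff runs, per the same notes. Column names, shifted by 1 place, were realigned with their values. The log2 ratios then tracked those of mean FPKM (r 0.985 to 0.999 over genes).

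A gene was tested if 4 or more libraries reached 1 FPKM (11687 genes). Limma 3.58.1 (R 4.3.3) was fitted to log2(FPKM + 1) of all 12 libraries, with trend. This scale understates changes of low genes. Calls had a Benjamini-Hochberg adjusted p, over these genes, under 0.05. The fit was checked on simulated data, where it called 55% to 60% of log2 changes of 0.5 and 88% to 97% of changes of 1. It made 6 to 9 false calls per comparison. A gene that did not pass may thus still have changed by 0.5. FPKM hold no counts, so absolute depth is unknown. Relative depth came from the steps between low values. Mir6402 overlaps Elavl2, and strand use is not stated.

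Each 3′ UTR came from the GENCODE vM21 principal transcript with the longest 3′ UTR. The 3′ ends used in oocytes were not measured. Alternatives were 2 other pseudocounts (0.1, 0.01), 2 other filters, quantile and median-of-ratios scaling, fits of 2 groups, no trend, a replicate block and each library left out. The motif classes were added to the scaling alternatives after seeing the data.

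Named genes were the 5, Marf1, Ppp2cb, paralogues, up to 4 calls per list by adjusted p, and the 3 genes most like each of the 5. The 5 genes, lists and tests were chosen with earlier results of these data known. Of 6 theca and stroma markers, sums were 1.66 to 2.27 FPKM in GTWT, 1.23 to 2.95 in GTD272 and 1.47 to 2.17 in GT.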

Additional observations from a re-analysis of the deposited data

Results flagged for a closer look

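Among the named genes, 120 sets of 4 libraries of a group were checked for a library far from the others, which chance gives in about 1 of 20 sets, and 6 were found. None belonged to the 5 AU-rich binder mRNAs. Zfp36l3 was at 0.173 FPKM in GTWT replicate 3 and listed at 0 in the other GTWT libraries. Pabpc1l was high in GTD272 replicate 4 at 84.1 FPKM, and in the same library Tk1 was high at 37.3 FPKM and Mcl1 low at 334 FPKM. Pdpk1 was high in GTWT replicate 3 at 29.8 FPKM. Btg4 was high in GT replicate 2 at 399.7 FPKM.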

How the results depend on the processing

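Over all alternatives, 305 of 312 values of the 5 mRNAs kept their side of the threshold, 7 newly passed it and 0 lost it. No value of a call turned round. Zfp36 and Zfp36l2 passed in GTWT against GT, and Zfp36 in GTD272 against GT, under every alternative tried. The newly passing values are -0.65 for Zfp36l1 in GTWT against GT (without GTWT replicate 3), 0.24 for Elavl2 in GTWT against GT (quantile normalization) and, for Zfp36l2, -0.30 in GTD272 against GT (only these 2 groups, or without GTWT replicate 2) and -0.36 to -0.68 in GTWT against GTD272 (without GTWT replicate 1, 2 or 3). With single libraries left out, Zfp36l1 in GTWT against GT ranged from -0.65 to -0.39, Zfp36l2 in GTD272 against GT from -0.33 to -0.26 and Zfp36l2 in GTWT against GTD272 from -0.68 to -0.36. The cause was not tested.

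Counts over all genes moved more. In GTD272 against GT the 165 higher and 180 lower calls came to 102 and 107 without a filter, 87 and 77 without a trend, 99 and 95 with the replicate block, and 60 to 168 and 50 to 207 with single libraries left out. In GTWT against GTD272 the 73 higher calls came to 144 after quantile normalization, 27 with only these 2 groups, 47 without a trend, 38 with the replicate block and 29 to 70 with single libraries left out. The 215 lower calls came to 125 without a filter, 97 with only these 2 groups, 126 without a trend and 85 to 246 with single libraries left out. Of the lists, AU-rich mRNAs had 5 calls in GTWT against GT, 3 after quantile normalization and 3 to 5 with single libraries left out, and 0 to 1 in GTD272 against GT. Other AU-rich binders had 0 to 3 calls in GTWT against GT. In GTD272 against GT, CCR4-NOT genes had 1 to 2 calls and signalling genes 0 to 1, with 0 after quantile normalization.

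Replicate numbers were not taken as pairs: same-numbered libraries had deviations that correlated at -0.22 to 0.21, over 0.1 in 2 of 12 pairs. In 2 of 12 matches of a GTWT or GTD272 library to another group, the library of its own number correlated best. With the replicate block the 5 mRNAs kept their calls, with adjusted p = 0.00377 for Zfp36l2 and 0.00623 for Zfp36 in GTWT against GT. Of 2066 values of the other named genes, 100 lost and 19 gained a call. Zfp36l1 and Elavl1, at 1.29 to 7.10 FPKM, are the least precise of the 5.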
